A study of Mus musculus with 16 samples.

Results

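The mature arms of the miR-143 and miR-145a hairpins were followed in extracellular vesicles (EVs) of mouse bone marrow plasma. They were picked by name from the count table, as mmu-miR-143-3p, mmu-miR-143-5p, mmu-miR-145a-5p and mmu-miR-145a-3p, and are 4 of its 1915 entries. The species prefix is dropped below. All mice carried the CAGS-Snorkel reporter on the C57BL/6N background and were 6 months old. The Ocn group (6 libraries, 3 male and 3 female mice) also carried Ocn-Cre, whose osteocalcin promoter is active late in the osteoblast lineage, including osteocytes. The Prx1 group (10 libraries, 5 male and 5 female mice) carried Prx1-Cre, active from the early mesenchyme of the limb bud onward and so in all of its progeny. Vesicles were captured on HA-antibody beads. Neither mice without Cre nor uncaptured plasma are among the libraries analysed here, and the background of the capture is therefore unknown. Lower counts from fewer vesicles and from less RNA per vesicle cannot be told apart.

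miR-143 and miR-145 are cut from 1 primary transcript and are best known from smooth muscle, pericytes and fibroblasts, where their transcription depends on serum response factor and its myocardin-family partners. Each hairpin gives a pair of arms, of which usually only 1 is loaded into an Argonaute protein and kept, while the other is degraded. miR-145-5p represses the Krüppel-like factors KLF4 and KLF5 and miR-143-3p represses ELK1, which favours the contractile state of smooth muscle over the proliferative one. In bone marrow they are regarded as microRNAs of stromal and perivascular cells rather than of blood cells.

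The microRNAs whose levels were most like those of miR-143-3p and miR-145a-5p over the 16 libraries are shown first, in 2 sets. Likeness was the Spearman correlation of log2 (CPM + 1) after each group's mean was removed, over 233 other tested entries, where CPM is the count per 1e6 counts of the library total. The mature sequences are from RefSeq (GRCm38.p6), 5′ to 3′, with the seed (bases 2 to 8, which pair with targets) in capitals. The first 5 lines belong to miR-143-3p and the other 4 to miR-145a-5p.
miR-196b-5p: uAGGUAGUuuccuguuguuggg (chr6:52230129-52230150, minus strand)
miR-27b-3p: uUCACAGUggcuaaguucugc (chr13:63300760-63300780, plus strand)
miR-152-3p: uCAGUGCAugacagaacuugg (chr11:96850439-96850459, plus strand)
miR-101a-3p: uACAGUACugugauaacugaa (chr4:101346957-101346977, minus strand)
miR-411-5p: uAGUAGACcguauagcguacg (chr12:109710190-109710210, plus strand)
miR-221-3p: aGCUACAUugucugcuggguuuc (chrX:19146307-19146329, minus strand)
miR-133b-3p: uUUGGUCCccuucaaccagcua (chr1:20682834-20682855, plus strand)
miR-350-3p: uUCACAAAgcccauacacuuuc (chr1:176772342-176772363, minus strand)
miR-146b-5p: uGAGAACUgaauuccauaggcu (chr19:46342790-46342811, plus strand)
No 2 of these share a seed. The fifth entry of the second set, miR-133a-3p, is named only.

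The hairpins lie on the minus strand of chromosome 18 in GRCm38 (mm10), Mir143 at 61649196 to 61649258 and Mir145a at 61647825 to 61647894, with 1301 bases between them. In the GENCODE annotation neither overlaps the noncoding gene Carmn, which is on the same strand and ends 366 bases upstream of Mir143. A relative from elsewhere on the chromosome, miR-145b, had 1 count in 1 Ocn library and 0 in the other libraries.

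Depth moved with the group, from 582660 to 1536421 counts per library in Ocn and from 225273 to 813770 in Prx1. Depth was varied in 2 ways, as a further term in the fit, which left 0 entries called, and by thinning every library to 225273 counts, which left 27 of 194 called. Of 234 entries tested by edgeR's quasi-likelihood method, 32 (13.7%) passed an adjusted p of 0.05, 14 (5.98%) higher and 18 (7.69%) lower in Ocn, and none of them was an arm of miR-143 or miR-145a. Of the 4 arms 3 reached the low-count filter. miR-143-5p did not, and its values come from a fit without that filter. Marker microRNAs of other cells were present in both groups. Their summed levels per library were 39775 to 95534 CPM in Ocn and 43528 to 71893 CPM in Prx1 for leukocytes, and 14654 to 27749 CPM in Ocn and 18434 to 27471 CPM in Prx1 for erythroid cells. Of the 4 microRNAs in each of these lists, 1 was lower in Ocn with edgeR, miR-150-5p of lymphocytes (-1.05, SE 0.20, adjusted p = 0.00125) and miR-486a-5p of erythroid cells (-0.38, SE 0.13, adjusted p = 0.0451). The other 3 erythroid microRNAs lay above 0 and did not pass: miR-144-3p (0.58, SE 0.20, edgeR adjusted p = 0.0569), miR-451a (0.22, SE 0.18) and miR-144-5p (0.17, SE 0.17). Another miR-486 entry, miR-486b-5p, is outside the erythroid list and its sum, and was also lower in Ocn (-0.38, SE 0.13, edgeR adjusted p = 0.0457). In the leukocyte list 1 of 4 lay above 0. The liver microRNA miR-122-5p, below the filter, ranged from 4.40 to 23.5 CPM in Ocn and from 0 to 1644 CPM in Prx1. The part of these cells in the values of the arms was not tested.

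miR-143-3p, the retained arm of its hairpin, was among the abundant microRNAs of both groups, the 11th by mean level in Ocn and the 15th in Prx1. In Ocn its lowest, median and highest levels were 13933, 16781 and 21797 CPM, and in Prx1 they were 11734, 13840 and 16411 CPM. All 6 Ocn libraries lay above the Prx1 mean and 3 of them above every Prx1 library, while the other 3 lay inside the Prx1 range. Mean levels were 17283 ± 3196 CPM for Ocn (SD, n = 6) and 13794 ± 1835 CPM for Prx1 (SD, n = 10). The fitted log2 fold change of Ocn over Prx1 was 0.29 (SE 0.11), a 1.22-fold higher level with an approximate 95% interval of 1.04 to 1.42, and it missed the threshold (edgeR p = 0.0202, adjusted p = 0.0983). The call turned with the scaling: with upper quartile scaling the log2 fold change was 0.39 (edgeR adjusted p = 0.0385). With log10 depth as a further term it was 0.29 (SE 0.18, edgeR adjusted p = 0.388), and after thinning it was 0.28 (edgeR adjusted p = 0.105).

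miR-145a-5p, the retained arm of the partner hairpin, was far rarer, the 138th entry by mean level in Ocn and the 130th in Prx1. Its lowest, median and highest levels were 51.5, 121 and 142.6 CPM in Ocn and 78.1, 120 and 181 CPM in Prx1. The groups overlapped, and the lowest library of all, Ocn 3, held 30 counts (95% Wilson interval of 36.1 to 73.5 CPM, counting error only). Mean levels were 109 ± 32 CPM for Ocn (SD, n = 6) and 123 ± 30 CPM for Prx1 (SD, n = 10). The log2 fold change of -0.19 (SE 0.20) did not pass (edgeR adjusted p = 0.602), and the approximate 95% interval of the ratio ran from 0.673 to 1.15. Without Ocn 3 the log2 fold change was 0.03 (edgeR adjusted p = 0.926).

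The minor arms were near the limit of detection. miR-145a-3p, the passenger arm of miR-145a, had 14 to 47 counts per library in Ocn and 3 to 16 in Prx1, and its lowest, median and highest levels were 22.7, 23.8 and 30.6 CPM in Ocn and 9.54, 17.7 and 35.5 CPM in Prx1. All 6 Ocn libraries lay above the Prx1 mean but inside the Prx1 range. The means were 24.7 ± 2.9 CPM (SD, n = 6) and 18.1 ± 7.5 CPM (SD, n = 10), with a log2 fold change of 0.41 (SE 0.23, edgeR adjusted p = 0.242).

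miR-143-5p, the passenger arm of miR-143, had 11 to 31 counts in Ocn and 2 to 11 in Prx1. Its levels were 15.8, 19.1 and 46.3 CPM in Ocn and 8.88, 14.4 and 32.0 CPM in Prx1, again as lowest, median and highest. 5 of 6 Ocn libraries lay inside the Prx1 range, and the sixth, Ocn 3, lay above it. The mean of 23.9 ± 11.4 CPM (SD, n = 6) against 16.9 ± 6.7 CPM (SD, n = 10) gave a log2 fold change of 0.49 (SE 0.31, edgeR adjusted p = 0.443 over 973 entries). Without Ocn 3 it was 0.25, from a mean of 19.4 ± 3.5 CPM in the other 5 Ocn libraries.

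**Figure D1:**
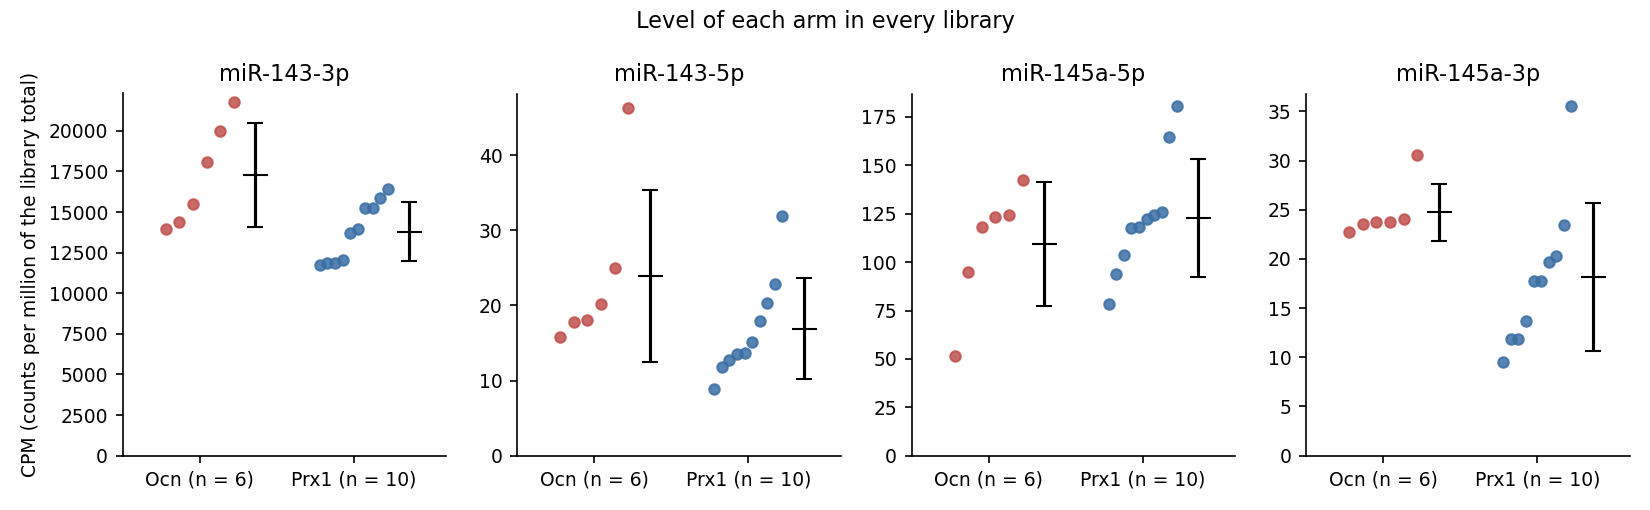
Level of each arm in CPM of the library total (vertical axis, linear and from 0, 1 scale per panel), with 1 point per library and the mean ± SD beside each group of 6 Ocn and 10 Prx1 libraries. The groups overlap in every panel. Ocn 3 is the highest Ocn point for miR-143-3p (21797 CPM) and miR-143-5p (46.3 CPM) and the lowest for miR-145a-5p (51.5 CPM).

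Of the 3 tested arms 0 passed with edgeR, DESeq2 or voom, and 1 had an unadjusted p under 0.05 with edgeR. Over all 234 entries 32, 42 and 48 passed with these tools, and 62 had an unadjusted p under 0.05 with edgeR. None of the 4 had groups that did not overlap, which 3.85% of tested entries had. The spread between libraries was set against that of counting alone, a ratio that rises with the counts at the same relative spread. For miR-143-3p the variance of the counts within a group was 501 times that of counting alone in Ocn and 88.4 times in Prx1, although its biological coefficient of variation in the edgeR fit, 17.0%, exceeded that of only 12.4% of tested entries. For miR-145a-5p these ratios were 6.68 and 2.69, with a coefficient of 24.4%. For miR-145a-3p they were 0.432 and 0.976, so its spread was no larger than counting gives. Its coefficient of 17.8% is drawn by the edgeR fit toward those of other entries and is not a measure of this arm alone. miR-143-5p had 3.88 in Ocn and 0.846 in Prx1.

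The order of the levels was the same in both groups for the leading arms. miR-143-3p exceeded miR-145a-5p in 16 of 16 libraries, by 130-fold as a geometric mean (exact sign-flip permutation p = 3.05e-05, the smallest that 16 libraries allow). miR-145a-5p exceeded miR-145a-3p in 16 of 16 libraries, by 5.53-fold (exact sign-flip permutation p = 3.05e-05). The minor arms did not differ from each other beyond their spread: miR-145a-3p was higher in 8 libraries, lower in 5 and equal in 3 (log2 ratio 0.11 ± 0.48, SD; exact sign-flip permutation p = 0.370). Adaptor ligation depends on the sequence, so these ratios between arms are ratios of counts and not of molecules. Together the arms took 1.74% ± 0.32 (SD, n = 6) of each Ocn library and 1.395% ± 0.183 in Prx1 (SD, n = 10), of which miR-143-3p made up 98.3% to 99.4%.

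The next question was whether the products of the shared transcript kept a fixed proportion. Their ratio within a library does not depend on library scaling. The ratio of miR-143-3p to miR-145a-5p, with 0.5 added to each count, was 101, 153 and 416 as lowest, median and highest in Ocn and 71.6, 117 and 198 in Prx1. The highest ratio of each group was in Ocn 3 and Prx1 6. On the log2 scale the means were 7.35 ± 0.72 (SD, n = 6) and 6.82 ± 0.44 (SD, n = 10), a difference of 0.53 that did not pass (2-sided exact permutation p = 0.0805). Single libraries decided the side of 0.05: the difference was 0.66 without Ocn 2 (exact permutation p = 0.0356), 0.62 without Prx1 6 (exact permutation p = 0.0250) and 0.25 without Ocn 3.

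Arm choice, the share of a hairpin's counts in its 5p arm, was then compared. The 5p arm of miR-145a took 80.3% ± 6.4 in Ocn (SD, n = 6), against 86.4% ± 7.4 in Prx1 (SD, n = 10). The lowest shares were 68.2% in Ocn 3 (30 of 44 counts, 95% Wilson interval 53.4% to 80.0%) and 68.8% in Prx1 6 (22 of 32 counts, 51.4% to 82.0%), and the highest was 93.8% in Prx1 5. The log2 ratio of 5p to 3p was lower in Ocn by -0.66 (SE 0.33), which missed the threshold (limma adjusted p = 0.245), in a test that called 3 of 44 hairpins (6.82%). Leaving out Prx1 6 gave the smallest adjusted p of any setting, with a difference of -0.84 (limma adjusted p = 0.0542).

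The 5p arm of miR-143 took 0.134% ± 0.040 in Ocn (SD, n = 6), against 0.125% ± 0.050 in Prx1 (SD, n = 10). The log2 ratio of its arms differed by 0.08 (exact permutation p = 0.761). Of the hairpin pair, miR-143 therefore gave a nearly pure 3p arm in every library, at most 0.212% 5p, whereas the 5p arm of miR-145a ranged from 68.2% to 93.8%.

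**Figure D2:**
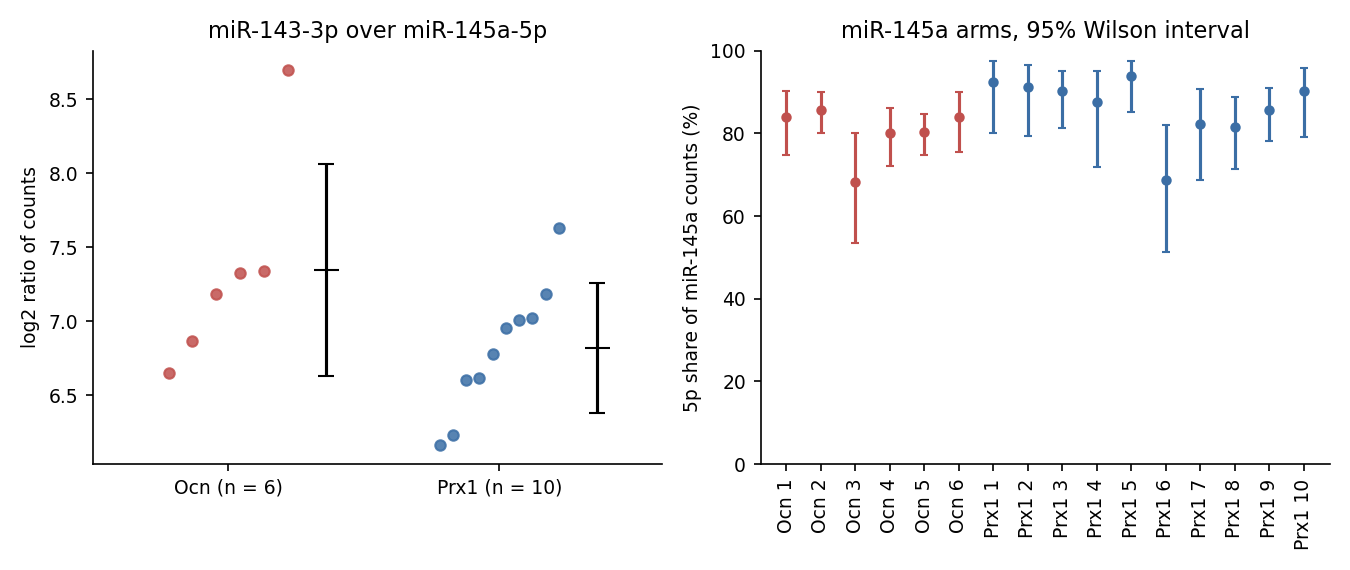
Left, log2 ratio of miR-143-3p to miR-145a-5p counts, 1 point per library with the mean ± SD of 6 Ocn and 10 Prx1 libraries. Right, share of miR-145a counts in the 5p arm (percent) in each library, with its 95% Wilson interval. Ocn 3 and Prx1 6 have the highest ratio of their group on the left and the lowest 5p share on the right, 68.2% and 68.8%.

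Levels were also compared between arms over the 16 libraries, for 6 pairs, on the scale of log2 (CPM + 1). miR-143-3p and miR-145a-3p were positively correlated, with Pearson r = 0.63 (permutation p = 0.00903, adjusted p = 0.0271). Spearman's rho was 0.74 (permutation p = 0.00155, adjusted p = 0.00930). Within Ocn rho was 0.77 and within Prx1 0.54. r was 0.60 without Ocn 3 and Ocn 5, the 2 libraries farthest from the median of miR-143-3p. Within each group the spread of miR-145a-3p was no larger than counting gives, so these values cannot settle whether the 2 arms move together. The leading arms of the 2 hairpins, miR-143-3p and miR-145a-5p, were not positively correlated. They had r = -0.50 (permutation p = 0.0524, adjusted p = 0.0787) and rho = -0.21 (permutation p = 0.443, adjusted p = 0.443). r was -0.24 without the same 2 libraries. After removal of the group means, miR-145a-5p stood 183rd among the 233 entries in its likeness to miR-143-3p (rho = -0.31) and miR-145a-3p stood 20th (rho = 0.52).

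The arms of miR-145a were not positively correlated either, with r = -0.46 (permutation p = 0.0759, adjusted p = 0.0911) and rho = -0.43 (permutation p = 0.0958, adjusted p = 0.171). Within Prx1 rho was -0.65, and within Ocn it was -0.09. miR-143-5p and miR-145a-3p had r = 0.56 (permutation p = 0.0239, adjusted p = 0.0478) and rho = 0.65 (permutation p = 0.00738, adjusted p = 0.0221). r was 0.68 without the 2 farthest libraries, but within Ocn it was -0.04 and within Prx1 0.58. miR-143-5p and miR-145a-5p had r = -0.68 (permutation p = 0.00586, adjusted p = 0.0271) and rho = -0.41 (permutation p = 0.114, adjusted p = 0.171), and r fell to -0.45 without Ocn 3 and Prx1 4. miR-143-3p and miR-143-5p had r = 0.43 (permutation p = 0.0926, adjusted p = 0.0926) and rho = 0.32 (permutation p = 0.223, adjusted p = 0.268), with r = 0.05 without the 2 farthest. The points of all pairs share the library totals, and the minor arms rest on as few as 2 or 3 counts. Libraries were permuted without regard to group, so each permutation p also holds any difference of the group means.

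**Figure D3:**
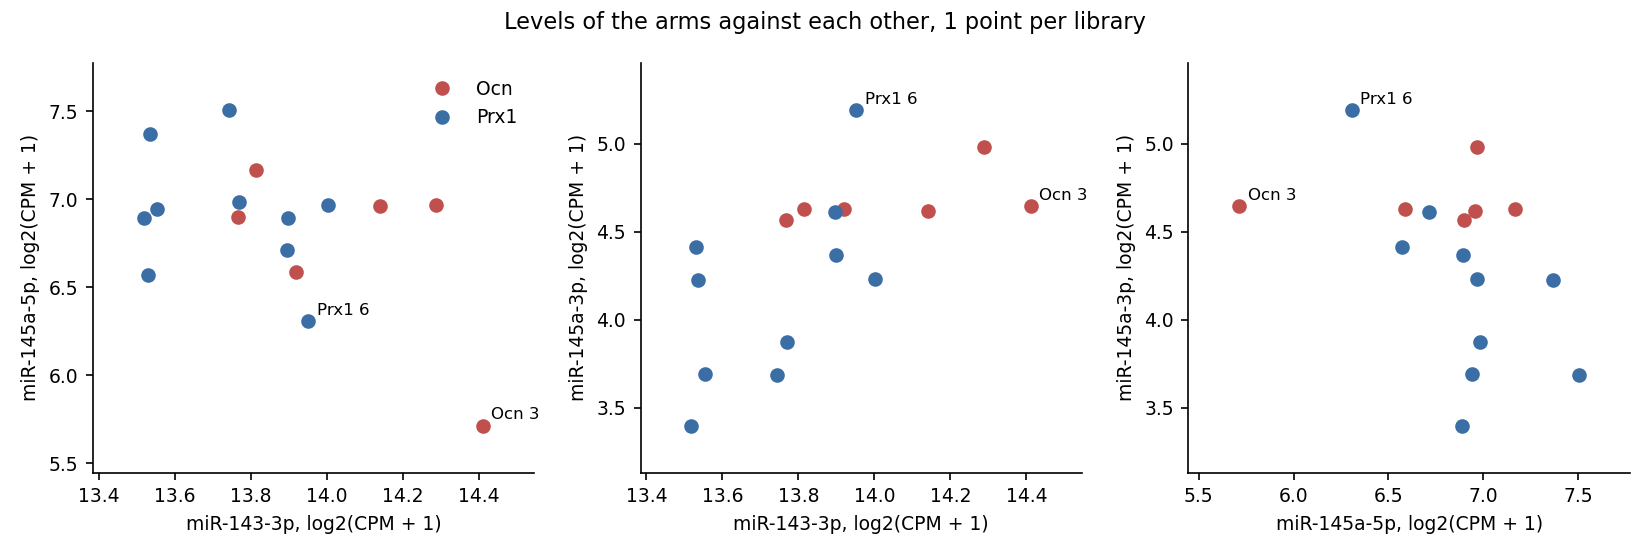
Levels of 3 pairs of arms as log2 (CPM + 1), 1 point per library, coloured by group, with Ocn 3 and Prx1 6 named. The middle panel rises (rho = 0.74) while the left panel, of the leading arms, does not (rho = -0.21), and in the right panel the arms of miR-145a tend in opposite directions (rho = -0.43).

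The sequences of the entries most like each leading arm stand above. The 2 arms were themselves negatively correlated on this scale (rho = -0.31), so that the sets share no member follows from this. For miR-143-3p they were miR-196b-5p, encoded in a Hox cluster (rho = 0.78), miR-27b-3p (rho = 0.78), miR-152-3p of the miR-148 family (rho = 0.75), miR-101a-3p (rho = 0.70) and miR-411-5p of the Dlk1-Dio3 imprinted locus (rho = 0.67). For miR-145a-5p they were miR-221-3p (rho = 0.78), the muscle microRNAs miR-133a-3p (rho = 0.72) and miR-133b-3p (rho = 0.66), miR-350-3p (rho = 0.64) and miR-146b-5p (rho = 0.64). These are descriptions over 16 libraries that share their totals. Within the second set, 4 had their lowest level of each group in Ocn 3 and Prx1 6, the libraries lowest in miR-145a-5p. The set was chosen for its likeness to miR-145a-5p over these same libraries, so this describes the choice and supports nothing further. miR-133a-3p had 2990 CPM in Ocn 3, with the other Ocn libraries at up to 4757 CPM, and 3449 CPM in Prx1 6, with the other Prx1 libraries at up to 8772 CPM. For miR-350-3p the levels were 22.3 CPM (Ocn 3) and 32.0 CPM (Prx1 6). The exception was miR-221-3p, lowest in Prx1 6 (540 CPM) but second lowest in Ocn 3 (616 CPM). miR-1a-3p, another muscle microRNA, was not low there: Ocn 3 had 53942 CPM and Prx1 6 had 44999 CPM, each second highest in its group.

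The arms were set beside microRNAs of 3 neighbouring kinds, each by its most abundant member. miR-199a-3p, a mesenchymal microRNA, stood at 17865 ± 1678 CPM for Ocn and 16121 ± 1355 CPM for Prx1 (SD, n = 6 and 10), close to the level of miR-143-3p. Counts of another entry of that family, miR-199b-3p, were not added to it (edgeR average log2 CPM 13.03, against 14.03 for miR-199a-3p). miR-126a-3p of endothelium had 16167 ± 1411 and 14340 ± 2176 CPM. miR-1a-3p of striated muscle had 48287 ± 9033 and 37029 ± 10218 CPM. The log2 ratio of miR-143-3p to these changed between the groups by 0.17 for miR-199a-3p (exact permutation p = 0.0627, adjusted p = 0.184), 0.13 for miR-126a-3p (exact permutation p = 0.413, adjusted p = 0.495) and -0.09 for miR-1a-3p (exact permutation p = 0.672, adjusted p = 0.672). For miR-145a-5p the changes were -0.36 (exact permutation p = 0.176, adjusted p = 0.265), -0.39 (exact permutation p = 0.0819, adjusted p = 0.184) and -0.62 (exact permutation p = 0.0919, adjusted p = 0.184). None of the 6 ratios passed, so no difference of the arms from these microRNAs was detected.

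Of 10 other stromal microRNAs, all tested, 3 were higher in Ocn and 0 lower with edgeR, against 5.98% higher and 7.69% lower over all entries tested. The 3 were miR-22-3p (0.45, SE 0.13, adjusted p = 0.0194), miR-99a-5p (0.45, SE 0.14, adjusted p = 0.0278) and miR-199a-5p (0.43, SE 0.13, adjusted p = 0.0290), all from edgeR. The median log2 fold change of the list was 0.23, against 0.01 over all entries tested. This list and those below were chosen with earlier results of these data known, so the comparison is not independent of them. The count was 1 without Ocn 4, Prx1 1, Prx1 2 or Prx1 6, and 0 without Prx1 3. Of the list 8 of 10 lay above 0, as did miR-143-3p (0.29) and miR-145a-3p (0.41). miR-145a-5p (-0.19) lay below 0, as did miR-214-3p (-0.29, SE 0.15, edgeR adjusted p = 0.228) and miR-10b-5p (-0.41, SE 0.14, edgeR adjusted p = 0.0569). This likeness of sign was not tested.

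Of 10 microRNAs reported to regulate smooth muscle cells, 0 passed with edgeR, 2 had an unadjusted p under 0.05, and 1 passed with DESeq2 and 0 with voom. Against 13.7% of all entries called and 62 of 234 with an unadjusted p under 0.05, these counts do not stand above the background. Their median log2 fold change was 0.02. The most abundant were miR-26a-5p, at 27824 ± 2057 CPM in Ocn and 23900 ± 775 CPM in Prx1 (0.19, SE 0.08, edgeR adjusted p = 0.154), miR-21a-5p (0.04, SE 0.12, edgeR adjusted p = 0.850) and miR-146a-5p (-0.0010, SE 0.20, edgeR adjusted p = 0.999). Without Ocn 3, 1 of the list passed. Of 4 tested microRNAs of striated muscle, 2 were lower in Ocn, against 7.69% of all entries tested, miR-133a-3p (-0.68, SE 0.16, edgeR adjusted p = 0.00819) and miR-133b-3p (-0.96, SE 0.24, edgeR adjusted p = 0.0101), the relatives of miR-145a-5p in pattern. The most abundant of that list, miR-1a-3p, went the other way (0.34, SE 0.17, edgeR adjusted p = 0.187), and miR-206-3p did not pass (-0.29, SE 0.24, edgeR adjusted p = 0.487). The median of the list was -0.48. miR-133a-5p, the other arm of the miR-133a hairpin, is outside the list and lay above 0 (0.77, SE 0.30, edgeR adjusted p = 0.0883). The log2 ratio of 5p to 3p of miR-133a was higher in Ocn by 1.39 (SE 0.35, limma adjusted p = 0.0123). With log10 depth as a further term none of the stromal or striated muscle calls passed.

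**Figure D4:**
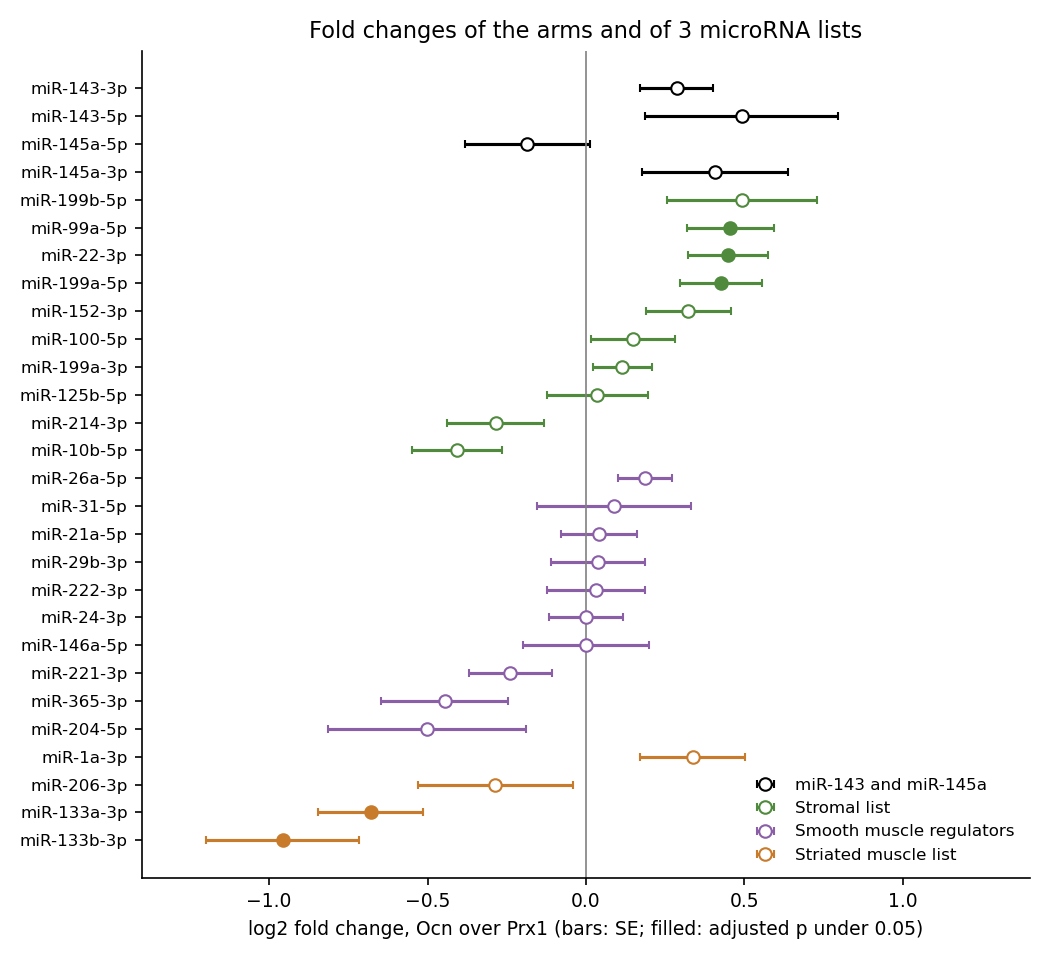
Log2 fold change of Ocn over Prx1 (horizontal axis, bars are SE) from edgeR for the 4 arms and the tested members of 3 lists, with filled points where the adjusted p is under 0.05. miR-143-5p is from the fit without a low-count filter and all others from the fit over 234 entries. The 4 arms are open points, 3 above 0 and miR-145a-5p below it at -0.19.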

How the data were processed

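MicroRNAs were sequenced from EVs of 16 mice, 1 library per column, with the QIAseq kit on 1 ng of input RNA, per the labels' protocols. The authors deposited raw counts per mature microRNA. Per the submitters' processing notes, cutadapt 1.18 and mm10 were used. What aligned and counted the reads, and whether unique molecular identifiers were used, is not given in the sources examined, so intervals cover counting error only. Groups follow the titles, and sex and batch are not given per library.

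CPM were computed from library totals. Abundance was tested with edgeR 4.0.16 (TMM, filterByExpr, robust, group only, Benjamini-Hochberg over 234 entries), arm ratios with limma 3.58.1, and single ratios with exact permutation over 8008 splits (scipy 1.17.1). Correlations used 100000 resamples. The edgeR and limma steps were tested on simulated data. The alternatives were DESeq2 1.42.0, voom, other scalings and filters, thinning to 225273 counts, a depth covariate, a replicate block and each library left out. The members and lists were chosen with earlier results of these data known. The microRNAs named are the 4 arms, the 5 entries most like each leading arm, the most abundant and the called members of the lists, and 1 microRNA of each of 3 families. Names added after values were seen are miR-214-3p, miR-10b-5p, miR-122-5p, miR-144-3p, miR-199b-3p, miR-133a-5p and miR-486b-5p. RefSeq gave the sequences printed.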

Additional observations from a re-analysis of the deposited data

Results flagged for a closer look

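Of 14 sets of library values tested for a value far from the rest of its group (4 arms and 3 ratios in 2 groups), 3 held one. Chance flags about 5% of independent sets of normal values. These sets share arms and libraries, so whether 3 exceeds chance was not tested. miR-143-5p in Ocn 3 was 46.3 CPM, with the other Ocn libraries between 15.8 and 25.0 CPM. The log2 ratio of miR-143-3p to miR-145a-5p in Ocn 3 was 8.70, with the next Ocn library at 7.34. miR-145a-3p in Ocn 5, the deepest library, was 30.6 CPM, above the 22.7 to 24.0 CPM of the other Ocn libraries, but its 95% Wilson interval of 23.0 to 40.7 CPM reached into that range.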

How the results depend on the processing

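The count of 32 entries called became 0 with the depth covariate (40 at an unadjusted p under 0.05) and ran from 24 to 36 with a library left out. miR-143-3p stayed above 0 in all 28 alternatives (0.24 to 0.37 with a library left out) and passed in 1 of them, upper quartile scaling (0.39), under which the median log2 fold change over all entries was 0.13 and 26 entries were higher and 11 lower. miR-145a-5p ran from -0.24 to 0.03 with a library left out, above 0 only without Ocn 3 (0.029). miR-143-5p and miR-145a-3p stayed above 0 and did not pass wherever they were tested. With filterByExpr, miR-145a-3p had no value after thinning or without any 1 of 8 libraries. The miR-145a arm ratio stayed below 0 in all 20 alternatives and did not pass. At least 50 counts over both arms in every library left no miR-145a value. The ratio of miR-143-3p to miR-145a-5p ran from 0.25 to 0.66 with a library left out. The miR-143 arm ratio was -0.20 after thinning and ran from -0.06 to 0.16 with a library left out, below 0 without Ocn 3 (-0.060) and without Prx1 4 (-0.02). The correlation of miR-143-5p with miR-145a-3p missed the threshold with TMM-scaled totals (rho = 0.54) and without any 1 of 4 libraries (rho from 0.59 to 0.75 over all left out). The stromal count of 3 was 1 without a low-count filter, 1 after thinning, 0 with the depth covariate and 0 to 3 with a library left out. The smooth muscle count of 0 was 1 with DESeq2, 1 with upper quartile scaling and 0 to 1 with a library left out. The striated muscle count of 2 was 0 with the depth covariate. The cause of these changes was not tested.

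Replicate numbers are shared by the groups, and whether they mark a pairing or a batch is not given. Same-numbered libraries deviated together with r from 0.004 to 0.24, which cannot settle it. With the replicate block over libraries 1 to 6 of both groups, 27 entries passed, against 28 in those libraries without it. The log2 fold changes under the block were 0.35 for miR-143-3p, 0.47 for miR-143-5p, -0.28 for miR-145a-5p and 0.57 for miR-145a-3p, the log2 ratio of miR-143-3p to miR-145a-5p differed by 0.63, and the arm ratios by -0.83 for miR-145a and by 0.0067 for miR-143. None passed. For the minor arms, with 2 to 47 counts per library, depth sets what could be seen.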
